A study of Mus musculus with 24 samples.

Results

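Collagen genes were followed through tumors and normal colorectal tissue of mice treated with AOM/DSS, that is azoxymethane, which is carcinogenic, and dextran sulfate sodium, which inflames the colon. The members are all genes whose symbol consists of Col, a number, the letter a and a number, which gave 44 of the 24346 symbols in each expression table. They were divided by the way their proteins assemble into 11 fibrillar, 6 basement membrane network, 6 beaded filament, 9 fibril-associated, 3 hexagonal network, 2 multiplexin, 1 anchoring fibril, 4 transmembrane and 2 other members. The 24 RNA-seq libraries comprise 14 tumors and 10 normal samples, and every mouse received AOM/DSS, those behind the normal samples included, so no untreated tissue enters a comparison. The genotype label reads c-MAF_KO for 9 tumors and 6 normal samples and WT for 5 tumors and 4 normal samples. c-MAF, encoded by Maf, is a transcription factor. Titles divide the libraries further. Titles beginning 1_hetero_ko, here KO-1-hetero, 8_hetero_ko, here KO-8-hetero, and 8_homo_ko, here KO-8-homo, each cover 3 tumors and 2 normal samples. Titles beginning wild_young, here WT-young, cover 4 tumors and 2 normal samples, and wild_old, here WT-old, covers 1 tumor and 2 normal samples. The labels state neither ages, strain, the allele and any promoter or Cre behind it, what the leading numbers mean, nor which samples share a mouse, so p-values measure the spread between these samples, which may share animals.

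Every value below is FPKM, a fragment count divided by transcript length and by library size, as the authors deposited it. Since this unit is per length it allows levels of different genes to be compared. The number of genes at 1 FPKM or more ran from 12074 to 13290 per library, and relative depth, estimated from the steps between low values with the median library at 1, ran from 0.690 to 1.87. Maf was not lower in the libraries labelled c-MAF_KO, at 2.62 to 7.40 FPKM in their tumors. The WT-young tumors ran from 1.63 to 2.26 FPKM and the WT-old tumor reached 7.26 FPKM, so "KO" stands here for the label alone. Transcripts outside a deleted stretch would still be counted, so this level does not check the deletion. Xist, the RNA expressed from an inactive X chromosome, reached 1 FPKM or more in 6 libraries, all with hetero titles: both normal samples of KO-1-hetero and of KO-8-hetero and tumor 3 of each. The other 18 libraries stayed at or under 0.0719 FPKM. Of 8 epithelial markers, Epcam was at 418.4 FPKM or more in every library, while Cdx2 ran down to 2.95 FPKM, with a median of 9.68 FPKM in tumors and 49.3 FPKM in normal tissue. In tumors against normal tissue, 3 of the 8 were called lower for KO and 1 for WT, against 23.2% and 14.8% of all genes tested. WT-young tumor 4 stood apart with the lowest collagen total of all tumors, 126.6 FPKM summed over the members, and the WT-old tumor came next with 302.7 FPKM. The other 12 tumors lay between 397.9 and 809.8 FPKM.

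Collagens are secreted proteins in which chains wind around each other into a helix. Fibrillar collagens, led by types I and III, form the load-bearing fibrils of the stroma and are made mainly by fibroblasts. Type IV collagen is the network of basement membranes, the sheets beneath epithelium and around vessels and muscle cells. Its α1 and α2 chains occur in nearly all of these sheets, whereas α5 and α6 chains are found together in the basement membranes of smooth muscle and some epithelia. Type VI collagen forms beaded filaments between cells and fibrils, fibril-associated collagens decorate the surface of fibrils, and the multiplexins, types XV and XVIII, sit at the outer face of basement membranes. In colorectal tumors, deposition of stromal collagen is a known part of the reaction of the surrounding tissue.

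Members were spread over 15 chromosomes, and 8 pairs were direct neighbours. In the RefSeq annotation of GRCm38.p6, the assembly equal to the mm10 build of the submitters' processing notes, Col4a1 (chr8:11198423-11312889, minus strand) and Col4a2 (chr8:11312805-11449287, plus strand) lie head to head and overlap by 85 bases at their 5′ ends. Col4a4 and Col4a3 on chromosome 1 have the same arrangement with an overlap of 114 bases. Col4a6 (chrX:141165403-141474095, minus strand) and Col4a5 (chrX:141475370-141689236, plus strand) are head to head as well, but 1274 bases apart. Libraries were made with a stranded kit, and whether the authors' quantification used strand is not given in the sources used here, so reads within the overlaps cannot be assigned with certainty. Col3a1 (chr1:45311538-45349706) and Col5a2 (chr1:45374331-45503282) are neighbours placed tail to tail, 24624 bases apart.

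Upstream sequence is shown for 6 members that the results turn on: the most abundant member Col3a1, the type I chain Col1a2, the multiplexin Col18a1, the type IV pair on the X chromosome whose levels went lower in tumors or differed between title groups, and Col17a1, which was high in 2 tumors only. Each is from RefSeq promoter windows of GRCm38.p6, 5′ to 3′ on the gene's strand, limited to bases before the annotated gene and outside any GENCODE M21 exon. Capitals mark matches, on either strand, to the CCAAT box (CCAAT), the TATA box (TATAAA) or the GC box (GGGCGG), and no marked matches overlap.
Col3a1, chr1:45311288-45311537, plus strand: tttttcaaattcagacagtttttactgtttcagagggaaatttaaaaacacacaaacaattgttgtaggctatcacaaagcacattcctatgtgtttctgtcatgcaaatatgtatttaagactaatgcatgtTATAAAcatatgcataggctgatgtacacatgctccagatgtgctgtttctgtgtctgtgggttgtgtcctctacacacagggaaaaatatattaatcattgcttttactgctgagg
Col1a2, chr6:4505370-4505492, plus strand: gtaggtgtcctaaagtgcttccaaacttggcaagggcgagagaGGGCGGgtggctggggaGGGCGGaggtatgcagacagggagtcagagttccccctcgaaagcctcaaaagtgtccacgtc
Col18a1, chr10:77166549-77166780, minus strand: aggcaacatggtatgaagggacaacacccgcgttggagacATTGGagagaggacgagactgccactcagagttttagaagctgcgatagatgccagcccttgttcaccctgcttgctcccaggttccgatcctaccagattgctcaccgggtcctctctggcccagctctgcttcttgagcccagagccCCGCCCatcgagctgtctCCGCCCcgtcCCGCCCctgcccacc
Col4a5, chrX:141475169-141475369, plus strand: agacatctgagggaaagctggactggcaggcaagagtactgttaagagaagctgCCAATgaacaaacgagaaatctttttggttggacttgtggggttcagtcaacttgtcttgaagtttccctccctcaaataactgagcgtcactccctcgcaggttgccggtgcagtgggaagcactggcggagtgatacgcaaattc
Col4a6, chrX:141474096-141474326, minus strand: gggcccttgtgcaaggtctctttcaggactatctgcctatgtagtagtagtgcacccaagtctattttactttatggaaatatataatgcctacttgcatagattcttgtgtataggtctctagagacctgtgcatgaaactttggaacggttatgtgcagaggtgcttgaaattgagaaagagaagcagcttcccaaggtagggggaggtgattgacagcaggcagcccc
Col17a1, chr19:47692095-47692292, minus strand: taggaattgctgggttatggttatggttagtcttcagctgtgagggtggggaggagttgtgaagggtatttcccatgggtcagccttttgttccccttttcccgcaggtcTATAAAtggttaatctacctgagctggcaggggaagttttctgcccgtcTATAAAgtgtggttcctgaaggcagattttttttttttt
In the printed stretches, Col3a1 and Col17a1 carry TATAAA, whereas Col1a2 and Col18a1 carry GGGCGG, and Col4a6 has neither. Of the 44 members, 35 had windows in the table, each of 300 bases around a start. A gene was counted if any of its windows held a match, bases not printed here included. GGGCGG occurred in 22 of the 35 members, or 62.9%, against 38.2% of all 27025 genes with windows of that length. Col4a5 and Col4a6 were among the 22, with matches outside the printed stretches. CCAAT occurred in 13 (37.1% against 41.1%), TATAAA in 5 (14.3% against 15.7%), the AP-1 motif TGANTCA in 1 (2.86% against 8.97%) and the CArG box in 1 (2.86% against 1.81%). Both strands were searched, and these shares describe letters in the windows.

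Levels differed widely between classes. Col3a1, the chain of type III collagen, had the highest mean of all members, 126.6 FPKM over the 24 libraries. The highest members of the other classes were Col6a1 of type VI collagen at 38.9 FPKM, Col4a1 at 31.4 FPKM, Col18a1 at 22.5 FPKM, the fibril-associated Col12a1 at 8.16 FPKM, the transmembrane Col23a1 at 2.51 FPKM, the hexagonal network member Col8a1 at 2.12 FPKM, Col28a1 at 1.11 FPKM and Col7a1, the anchoring fibril collagen, at 0.927 FPKM. Of the 44 members, 28 reached 1 FPKM in at least 4 libraries and were tested, and 15 of these were at 1 FPKM or more in every library. The 16 members not tested were Col2a1, Col11a1, Col11a2 and Col24a1 of the fibrillar class, Col4a3 and Col4a4, Col6a6, Col9a1, Col19a1, Col20a1 and Col22a1 of the fibril-associated class, Col8a2 and Col10a1, Col17a1 and Col25a1, and Col26a1. Of these, 10 stayed below 0.5 FPKM in every library, among them the cartilage collagen Col2a1 and the kidney and lung type IV chains Col4a3 and Col4a4. Col9a3 and Col7a1 passed the filter through tumors alone, with no normal library at 1 FPKM, and Col9a2 reached it in under 4 normal libraries. Col4a6 reached it in under 4 tumors.

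**Figure D1:**
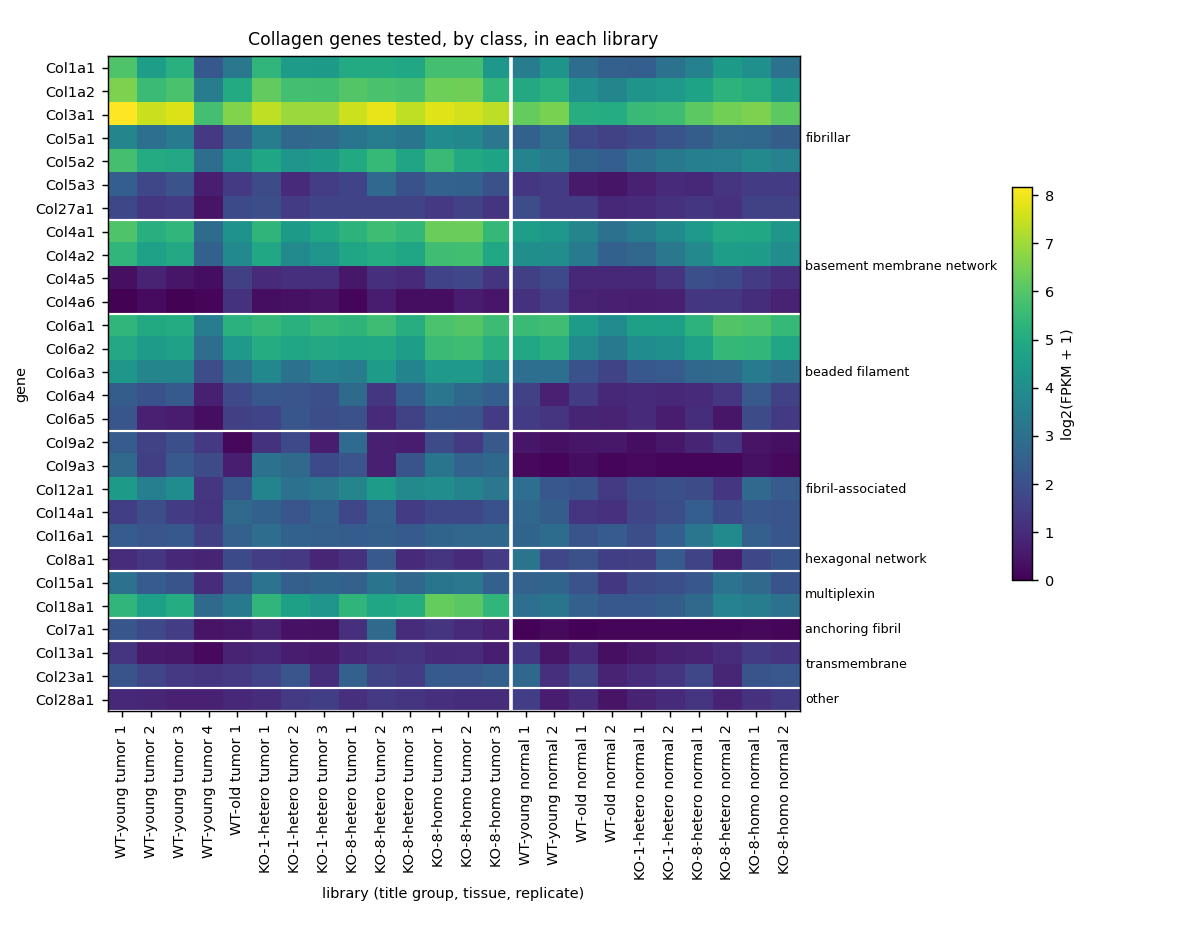
Level of each of the 28 collagen genes tested (rows, grouped by class) in each of the 24 libraries (columns, tumors left of the white line and normal samples right), as log2(FPKM + 1). Col3a1 is the brightest row throughout, the column of WT-young tumor 4 is dark in most rows, and Col9a3 and Col7a1 are dark in every normal sample.

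The 44 members together made up a larger part of the FPKM total in tumors than in normal samples. In tumors labelled KO their share of the summed FPKM ran from 0.0737% to 0.170% with a median of 0.119%, against 0.0213% to 0.0640% with a median of 0.0376% in normal samples labelled KO, so the ranges did not overlap. The FPKM total itself was lower in these tumors, 450172 to 577038 against 583474 to 1016810, so the share differed by more than the collagen level. Summed over the members, that level was 397.9 to 809.8 FPKM in these tumors and 158.9 to 373.5 FPKM in these normal samples. In tumors labelled WT it ran from 0.0207% to 0.158%, which overlapped the 0.0168% to 0.0521% of normal samples labelled WT, the low end being WT-young tumor 4. In bulk tissue, more cells of a type and more RNA per cell cannot be told apart.

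The first comparison set tumor against normal tissue within each label. With limma on log2(FPKM + 1), with Benjamini-Hochberg adjustment over the 13799 genes tested and a threshold of 0.05, 17 of 28 collagen genes changed among libraries labelled KO, 16 higher and 1 lower. Over all genes tested, 47.2% were called in this comparison, 24.1% higher and 23.2% lower. The median log2 fold change was 0.88 over the collagen genes, or 0.55 without the 6 libraries with high Xist, and 0.02 over all genes. Among libraries labelled WT, 7 of 28 changed, 5 higher and 2 lower, against 30.4% of all genes, 15.5% higher and 14.8% lower, and the median was 0.61. That median was 0.17 without the WT-old libraries, which hold 2 of the 4 normal samples but 1 of the 5 tumors, 0.38 without WT-young tumor 1, 0.39 without WT-old normal sample 2 and 0.93 without WT-young tumor 4. The share called for WT, 25.0%, was thus under that of all genes. Col9a3, Col7a1 and Col9a2 entered the test mainly or wholly through tumors and Col4a6 mainly through normal samples, so for these 4 a difference was favored by the filter. Their fold changes are given below as a description, without a test. Counted after the values were seen, the other 24 members had 13 calls for KO (54.2%), all higher. For WT they had 4 (16.7%), 3 higher and 1 lower, and the medians were 0.81 and 0.28. Fold changes on this scale understate those of genes near or under 1 FPKM. Of the 24, the 3 called higher in tumors of the WT label, Col5a2, Col18a1 and Col3a1, were called higher in tumors of the KO label too. Single libraries moved the WT count: it was 15, with 14 higher, without WT-young tumor 4, 4 without WT-young tumor 1, and 17, with 15 higher, without WT-young tumor 4 and the WT-old tumor together. Among libraries labelled KO the count was 10 with a term for high Xist in the model. It was 2, Col18a1 and Col9a3, when the 6 high-Xist libraries were left out, which left 7 tumors against 2 normal samples. Col9a3 is among the 4 genes for which the filter favored a difference.

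**Figure D2:**
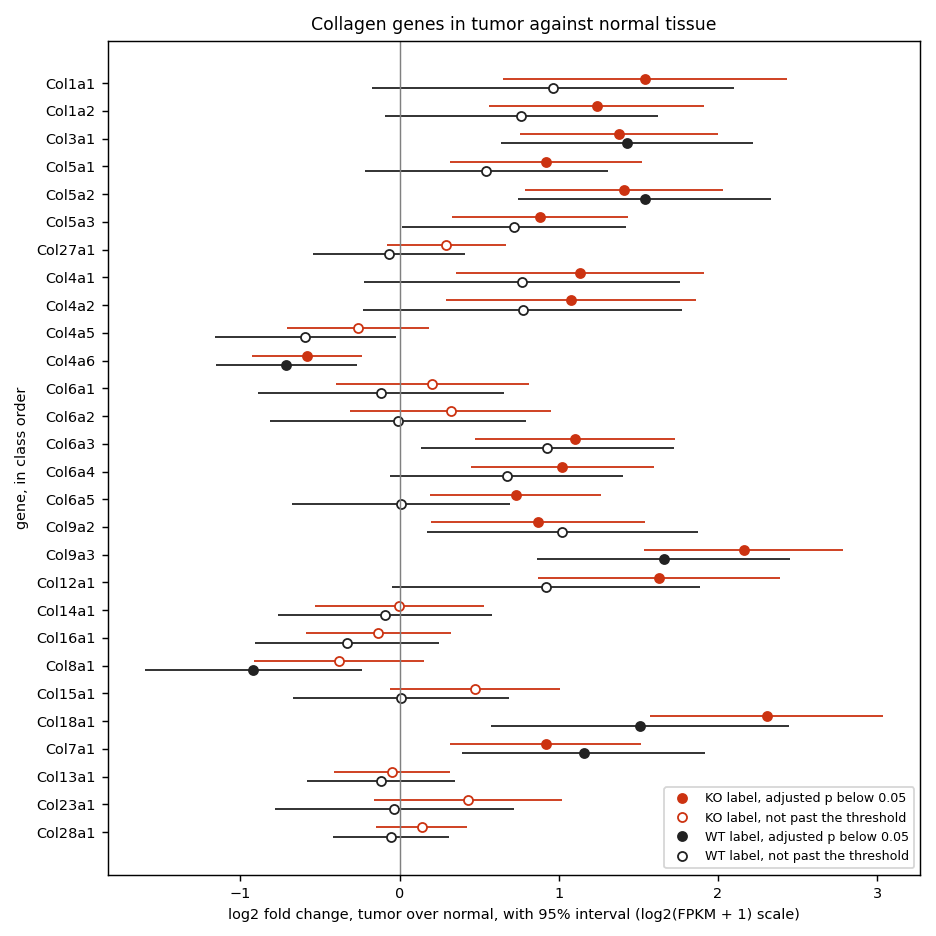
Log2 fold change of tumor over normal, on the log2(FPKM + 1) scale, with its 95% interval for each collagen gene tested, in libraries labelled KO (red) and WT (black). Filled points passed an adjusted p of 0.05: Col18a1 and Col9a3 lie farthest to the right for KO, and Col4a6 lies left of 0 for both labels. For Col9a3, Col7a1, Col9a2 and Col4a6 the filter favored a difference, so their points are a description.

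Fibrillar collagens were the class with the most calls in libraries labelled KO, 6 of 7 tested and all higher. All 6 calls were lost without the 6 libraries with high Xist, a fit that left 7 tumors against 2 normal samples. Of all genes, 47.2% were called there and 24.1% were called higher. In libraries labelled WT 2 of 7 passed, both higher, against 30.4% of all genes called and 15.5% called higher. Col3a1 measured 122, 168 and 235 FPKM at the lowest, median and highest of the 9 KO-labelled tumors and 43.9, 68.3 and 92.3 FPKM in the 6 normal samples, without overlap. The WT-labelled tumors held 286, 181, 212 and 51.6 FPKM in WT-young tumors 1 to 4 and 98.2 FPKM in the WT-old tumor. WT-labelled normal samples held 73.7 and 91.9 FPKM in WT-young and 32.7 and 32.2 FPKM in WT-old. Tumor 4 of WT-young alone lay inside the range of normal tissue. The log2 fold change was 1.38 (SE 0.301, adjusted p = 0.000883, limma) for KO and 1.43 (SE 0.384, adjusted p = 0.00792) for WT. The WT call was lost when the WT-old libraries were left out, with a fold change of 0.90.

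Col5a2, a chain of type V collagen, which starts the assembly of fibrils, followed Col3a1, its neighbour on chromosome 1. Its level was 18.3, 26.7 and 45.6 FPKM at the lowest, median and highest of KO-labelled tumors and 6.97, 10.6 and 13.4 FPKM in normal samples. The log2 fold change was 1.41 (SE 0.301, adjusted p = 0.000720, limma) for KO and 1.54 (SE 0.384, adjusted p = 0.00483) for WT. Without the WT-old libraries the latter was 1.15 and no longer past the threshold. Col1a1 (chr11:94936224-94953042), the major chain of type I collagen, had 19.5, 30.6 and 52.1 FPKM in KO-labelled tumors and 4.40, 9.32 and 20.8 FPKM in normal samples. These ranges overlapped, since KO-8-hetero normal sample 2 at 20.8 FPKM lay above KO-8-homo tumor 3 at 19.5 FPKM. Its log2 fold change was 1.54 (SE 0.432, adjusted p = 0.00594, limma). The WT-labelled tumors spread from 3.73 FPKM in WT-young tumor 4 to 58.8 FPKM in WT-young tumor 1, and the difference of 0.96 (SE 0.550, adjusted p = 0.184, limma) did not pass. Col1a2 rose by a log2 fold change of 1.24 in KO-labelled libraries, Col5a1 by 0.92 and Col5a3 by 0.88. Col27a1, a minor fibrillar chain, differed by 0.29 (interval -0.08 to 0.67) and did not pass. Col1a1 over Col1a2, the ratio of the type I partners, had a median of 0.520 in tumors (0.280 to 0.642) and 0.384 in normal tissue (0.246 to 0.546), with overlapping ranges.

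**Figure D3:**
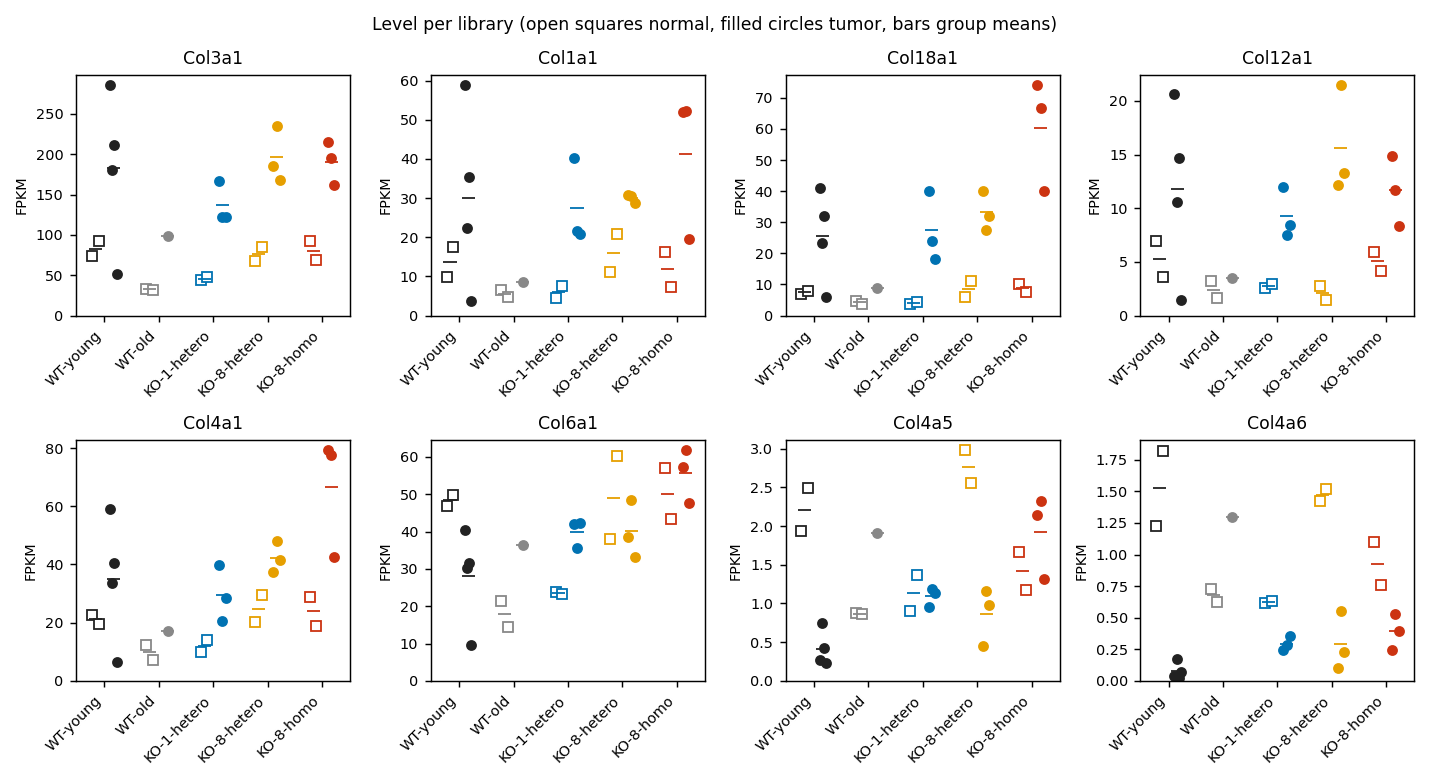
FPKM of 8 collagen genes in each library by title group (open squares normal, filled circles tumor, bars group means, linear axes). Col3a1, Col1a1, Col18a1, Col12a1 and Col4a1 are higher in tumors of the KO titles than in their normal samples, Col6a1 overlaps in KO-8-homo as well as KO-8-hetero, and Col4a6 is below normal in every title group except WT-old.

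Fibril-associated collagens divided into members that rose and members that did not. Col12a1 (chr9:79598987-79721141), which bridges fibrils and the surrounding matrix, measured 7.46, 12.0 and 21.4 FPKM in KO-labelled tumors and 1.47, 2.84 and 5.96 FPKM in normal samples, without overlap. Its log2 fold change was 1.63 (SE 0.368, adjusted p = 0.00115, limma) for KO, a call lost without the libraries with high Xist. For WT it was 0.92 (interval -0.05 to 1.89), where WT-young tumors measured 20.6, 10.5, 14.7 and 1.43 FPKM, and the WT-old tumor 3.54 FPKM. Col9a3 (chr2:180598102-180622192), a chain of type IX collagen best known from cartilage, was at 0.0714 to 0.290 FPKM in all 10 normal samples. Its tumor levels ran from 0.614 FPKM in the WT-old tumor and 0.645 FPKM in KO-8-hetero tumor 2 to 8.04 FPKM in KO-8-homo tumor 1, so that all 14 tumors lay above all normal samples. The log2 fold change was 2.16 for KO and 1.66 for WT. Col9a2, its partner chain, differed by 0.87 in KO-labelled libraries, with tumors from 0.561 to 6.22 FPKM and normal samples from 0.225 to 1.44 FPKM. Col9a1, the remaining chain of type IX collagen, reached at most 0.451 FPKM. Col14a1 differed by -0.09 for WT and had an interval from -0.53 to 0.53 for KO, and Col16a1 differed by -0.13 for KO and -0.33 for WT, and none of these passed. For both genes the title groups went different ways. Tumor means of Col14a1 were 0.396 times those of normal samples in WT-young and 0.742 times in KO-8-homo, with all tumors lower, and 1.70 times in KO-1-hetero and 4.61 times in WT-old, with all tumors higher. Those of Col16a1 were 0.381 times in KO-8-hetero and 0.576 times in WT-young, all lower, and 1.44 times in KO-1-hetero, 1.32 times in KO-8-homo and 1.25 times in WT-old, all higher. These differences between title groups were not tested.

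Type IV collagen showed opposite directions within the class. Col4a1 measured 20.7, 41.4 and 79.2 FPKM in KO-labelled tumors and 9.96, 19.6 and 29.4 FPKM in normal samples, with overlap. It rose by 1.13 on the log2 scale (SE 0.376, adjusted p = 0.0172, limma) and its head-to-head partner Col4a2 by 1.08 (SE 0.380, adjusted p = 0.0237). Without the libraries with high Xist, neither Col4a1 nor Col4a2 was called. In WT-labelled libraries both differed by 0.77 and did not pass, with an interval from -0.22 to 1.76 for Col4a1. The pair moved in step: Col4a1 over Col4a2 lay between 1.26 and 1.80 in all 24 libraries, with a median of 1.46 in tumors and 1.38 in normal tissue. Col4a6 went the other way. It measured 0.102, 0.285 and 0.553 FPKM in KO-labelled tumors and 0.613, 0.926 and 1.52 FPKM in normal samples, without overlap, a difference of -0.58 on the log2 scale. WT-young tumors held 0.0390, 0.172, 0.0265 and 0.0701 FPKM against 1.23 and 1.82 FPKM in their normal samples. The WT-old tumor, at 1.30 FPKM, was above its normal samples at 0.730 and 0.627 FPKM, and with it the difference among WT-labelled libraries was -0.71 on the log2 scale, or -0.56 without WT-young normal sample 2. Col4a5 differed by -0.26 for KO and by -0.59 for WT, the latter with an interval from -1.16 to -0.02 and an adjusted p of 0.104 (limma). Its level relative to Col4a1 had a median of 0.0256 in tumors and 0.0883 in normal tissue, and its level relative to Col4a6 was 1.21 to 2.15 in normal tissue and 1.47 to 15.8 in tumors.

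All 10 smooth muscle markers tested moved the same way as Col4a6. They were lower in tumors under both labels, with a median log2 fold change of -1.96 for KO and -2.63 for WT, and Cnn1, a calponin of smooth muscle, changed by -2.96 and -3.55. Their summed level ran from 189 to 2985 FPKM in tumors and from 961 to 7335 FPKM in normal tissue, and no marker of the list was at 0 in any library. The tumor with the highest summed level was the WT-old tumor, the one in which Col4a6 was not low. The part of smooth muscle in the type IV values was not tested.

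Type VI collagen was abundant in both tissues. Col6a1 (chr10:76708792-76726044) measured 33.2, 42.3 and 62.0 FPKM in KO-labelled tumors and 23.4, 40.6 and 60.2 FPKM in normal samples, and Col6a2 differed as little. Their log2 fold changes were 0.20 (interval -0.40 to 0.81) and 0.32 (interval -0.31 to 0.95) for KO and -0.12 and -0.01 for WT, and none passed. Col6a3, the long chain that completes the type VI monomer with them, rose by 1.10 (SE 0.303, adjusted p = 0.00511, limma) in KO-labelled libraries, from 5.94 FPKM at the median of normal samples to 12.9 FPKM at the median of tumors. The alternative chains Col6a4 and Col6a5 rose by 1.02 and 0.73. For Col6a3, Col6a4 and Col6a5 the KO call was lost without the libraries with high Xist. None of the 5 type VI members tested passed for WT, and 1 had an unadjusted p under 0.05, against 5869 of all 13799 genes. Col6a1 over Col6a2 lay at 1.24 to 1.80 in tumors and 1.38 to 1.66 in normal tissue.

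Col18a1 (chr10:77052178-77166530), whose C-terminal fragment is endostatin, had a log2 fold change of 2.30 among KO-labelled libraries (SE 0.355, adjusted p = 2.92e-05, limma), the largest of the 28 members with a pseudocount of 1. With a pseudocount of 0.1 it was 2.46 and Col9a3 was above it at 4.08. Tumors there measured 18.2, 40.0 and 74.0 FPKM and normal samples 3.78, 6.77 and 11.2 FPKM, without overlap. WT-young tumors held 40.9, 23.5, 32.1 and 6.09 FPKM and the WT-old tumor 8.80 FPKM, against 6.92, 7.97, 4.69 and 3.74 FPKM in the WT-labelled normal samples, so only WT-young tumor 4 lay within that range of normal samples. The log2 fold change for WT was 1.51 (SE 0.452, adjusted p = 0.0151, limma), and it did not pass without WT-young tumor 1 (1.22) or without the WT-old libraries (1.39). Col15a1, the other multiplexin, differed by 0.47 for KO (interval -0.06 to 1.01) and by 0.01 for WT. Col8a1, a network-forming collagen of vessel walls, was lower in WT-labelled tumors, at -0.92 on the log2 scale (SE 0.330, adjusted p = 0.0385, limma), with 0.803 to 2.54 FPKM in tumors and 1.87 to 7.75 FPKM in normal samples. The highest of these was WT-young normal sample 1, and without it the change was -0.58 and did not pass. The call was lost in 7 of 17 alternatives in all, the others being the fit with no filter and those without WT-young tumor 1, 2, 3 or 4 or WT-old normal sample 1, with an adjusted p of up to 0.180. For KO, Col8a1 differed by -0.38 (interval -0.92 to 0.15). Col13a1, Col23a1 and Col28a1 differed by at most 0.43 in either direction and did not pass.

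Genes that make, process and hold collagen were counted from lists chosen beside the members. Of 28 synthesis and processing genes tested, 13 were higher and 1 lower in KO-labelled tumors, and 3 were higher in WT-labelled tumors. These shares, 50.0% and 10.7%, compare with 47.2% and 30.4% of all genes. Bmp1, which cleaves procollagen at its C-terminus, rose by 1.30 and 1.05, and Lox, which cross-links fibrils, by 1.47 and 1.05. Ppib, a proline isomerase of collagen folding, fell by 0.51 on the log2 scale for KO. Of all genes tested, 24.1% were called higher for KO and 15.5% for WT. Of 14 basement membrane partners tested, 12 (85.7%) were higher for KO and 4 (28.6%) for WT, with Lama1 at 1.70 and 1.00 and Lama5 at 1.89 and 1.71. Laminins are the other network of the sheets that type IV collagen builds. Of 7 collagen receptor and uptake genes, 2 were higher for KO, Mrc2 at 0.92 and Lair1 at 0.70, and 1 for WT, Lair1 at 1.18. These shares, 28.6% and 14.3%, compare with 24.1% and 15.5% of all genes called higher. Of 6 TGF-beta ligands and receptors, 3 were higher for KO and 1 for WT, with Tgfbr2 at 0.95 and 0.53. That is 50.0% and 16.7%, against the same 24.1% and 15.5%.

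Markers of the cells that make collagen gave a mixed picture beside these rises. Of 10 fibroblast markers, 3 were higher and 1 lower in KO-labelled tumors, and 1 was higher in WT-labelled tumors, so 4 of 10 and 1 of 10 were called, under the 47.2% and 30.4% of all genes. Pdpn rose by 1.04 and 0.85, while Lum, a small proteoglycan that binds fibrils, changed by -1.13 for KO. The summed level of the list ran from 283 to 1051 FPKM in tumors and up to 660 FPKM in normal tissue. Endothelial markers were higher for 2 of 9 genes (22.2%) for KO and for 0 of 9 for WT, against 24.1% and 15.5% of all genes. For WT, 0 of 9 had an unadjusted p under 0.05 in limma, against 5869 of all 13799 genes tested. No fibroblast or endothelial marker was at 0 in any library. WT-young tumor 4, with the lowest collagen total of the tumors, also had the lowest mean of the fibroblast list among tumors, 3.06 on the log2(FPKM + 1) scale, and of the endothelial list, 1.87. Whether the number of such cells or their RNA moved the collagen genes was not tested.

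The second comparison set the labels against each other within each tissue, the question in the series title. None of the 28 collagen genes passed between KO-labelled and WT-labelled tumors in limma, and 0.00725% of all genes tested passed, 1 gene. An unadjusted p under 0.05 was found for 1147 of all 13799 genes tested and for 6 of the 28. The estimates leaned one way, 26 of 28 above 0 with a median of 0.48, but this median was 0.22 with the replicate number as a block, 0.19 without WT-young tumor 4 and 0.12 without that tumor and the WT-old tumor. The 6 were Col18a1 (1.01, interval 0.23 to 1.79, adjusted p = 0.476), Col6a1, Col6a2, Col6a5, Col15a1 and Col28a1. For Col3a1 the difference was 0.28 with an interval from -0.38 to 0.93, and for Col1a1 0.77 with an interval from -0.18 to 1.72, and differences within these bounds were not resolved. In normal tissue 0 of 28 passed in limma, against 0% of all genes. There 0 of 28 were at an unadjusted p under 0.05, against 645 of 13799 genes. The test of whether tumor against normal differed between the labels, the interaction, gave 0 of 28 and 0% of all genes. At an unadjusted p under 0.05 were 0 of 28 and 654 of 13799 genes. For Col18a1, the member with the largest estimate, the interaction was 0.80 with an interval from -0.39 to 1.99. Calls made under 1 label and missed under the other, such as those of Col1a1 and Col12a1, are therefore not shown to differ between labels.

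The last comparison took the titles apart, each KO title group against the 4 WT-young tumors, which the comparisons share. KO-1-hetero gave 1 of 28 collagen genes, KO-8-hetero 0 and KO-8-homo 1, where 2.88%, 0.00725% and 0.457% of all genes tested passed. Both calls were higher, against 1.63% of genes called higher and 1.25% lower for KO-1-hetero, and 0.058% higher and 0.399% lower for KO-8-homo. For KO-8-hetero, 1 collagen gene and 961 of all 13799 genes had an unadjusted p under 0.05 in limma, and the median over the members was 0.43. With the replicate number as a block that median was 0.07, with 0 calls and 0 members at an unadjusted p under 0.05. That fit leaves WT-young tumor 4 without weight, since no other library has its number. The median for KO-1-hetero was 0.26, or -0.09 without WT-young tumor 4.

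**Figure D4:**
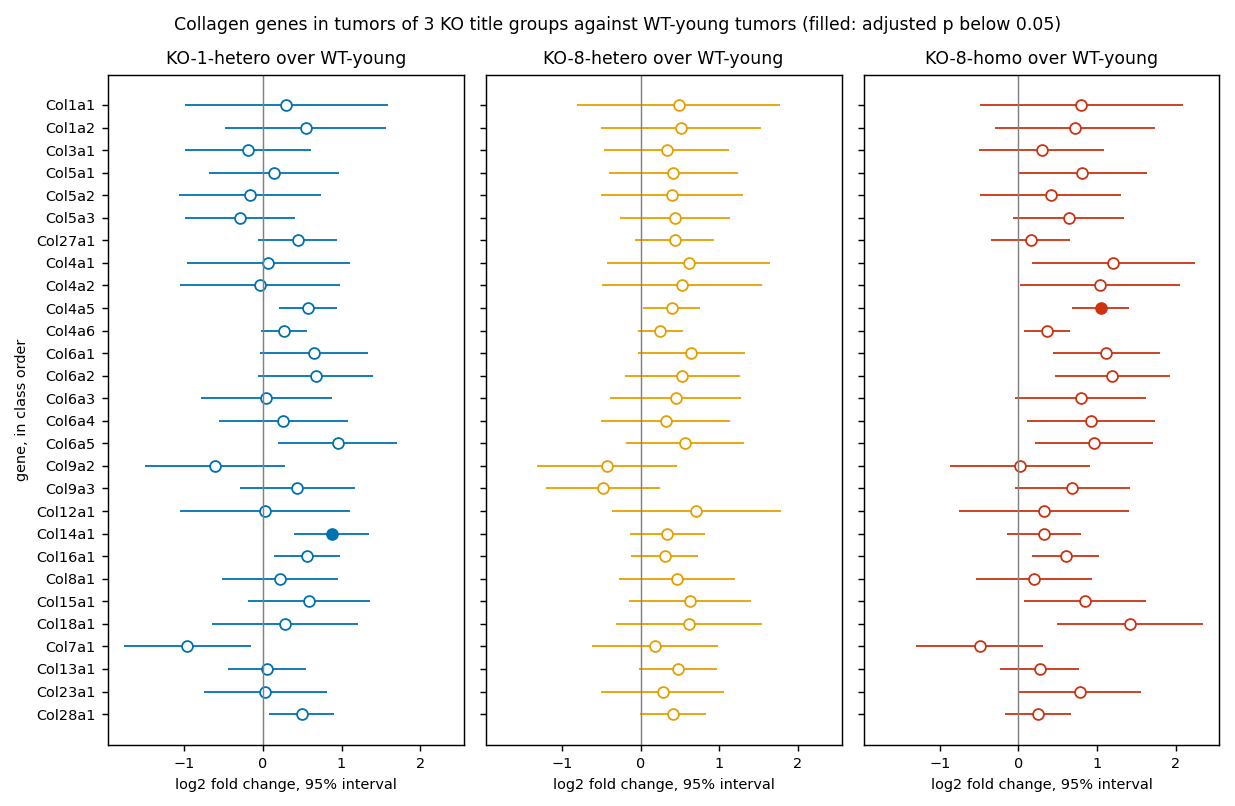
Log2 fold change with 95% interval of each collagen gene tested in tumors of KO-1-hetero (blue), KO-8-hetero (orange) and KO-8-homo (red) against the same 4 WT-young tumors, on the log2(FPKM + 1) scale. The filled points are Col14a1 for KO-1-hetero and Col4a5 for KO-8-homo, and in the right panel 27 of 28 estimates lie above 0.

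In KO-8-homo tumors, Col4a5 measured 2.14, 2.32 and 1.32 FPKM, and WT-young tumors had 0.273, 0.747, 0.418 and 0.227 FPKM, so the groups did not overlap. The log2 fold change was 1.04 (SE 0.173, adjusted p = 0.00758, limma). It was lost without KO-8-homo tumor 1 (adjusted p = 0.0591) or tumor 2 (adjusted p = 0.0816), and over its 14 alternatives 0.0816 was the highest adjusted p. Of the hetero titles, KO-1-hetero held 0.949, 1.19 and 1.14 FPKM, above WT-young and under KO-8-homo. KO-8-hetero held 0.454, 1.16 and 0.985 FPKM, which overlapped WT-young. The WT-old tumor, at 1.91 FPKM, was within the KO-8-homo range. Normal samples were at 0.858 to 2.98 FPKM, so the KO-8-homo tumors were inside the normal range and the WT-young tumors under it. Against KO-8-hetero tumors, 0 of 28 members passed, with 2 at an unadjusted p under 0.05. Of all 13799 genes tested there, 0.0507% were called and 801 had an unadjusted p under 0.05. The Col4a5 difference was 0.65 (unadjusted p = 0.00253, adjusted p = 0.427, limma). Col4a6, its neighbour, was at 0.247, 0.531 and 0.397 FPKM in KO-8-homo tumors and at 0.0265 to 0.172 FPKM in WT-young tumors, without overlap, with a difference of 0.37 and an adjusted p of 0.348. Between KO-8-homo and WT-young tumors, 11 of the 28 members and 1399 of all 13799 genes tested were at an unadjusted p under 0.05 in limma. The median over the 28 members was 0.70. It was 0.30 without WT-young tumor 4. Smooth muscle markers were higher on average in the same tumors, with a mean of 4.52, 4.72 and 5.64 on the log2(FPKM + 1) scale against 3.46 to 4.11 in WT-young tumors, though 0 of 10 passed in limma, with 6 at an unadjusted p under 0.05. Their part in the Col4a5 difference was not tested.

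Col14a1 (chr15:55307644-55520803), which binds the surface of fibrils, measured 4.85, 3.49 and 4.82 FPKM in KO-1-hetero tumors and 1.85, 2.87, 1.76 and 1.36 FPKM in WT-young tumors, without overlap. Its log2 fold change was 0.88 (SE 0.225, adjusted p = 0.0460, limma), just under the threshold. The call was lost in 9 of 14 alternatives, with an adjusted p of up to 0.198, among them the fits without KO-1-hetero tumor 1 or 3 and without WT-young tumor 1, 3 or 4. KO-1-hetero normal samples held 2.28 and 2.89 FPKM and WT-young normal samples 5.60 and 4.30 FPKM, the opposite order. The highest tumor of all was the WT-old tumor at 6.15 FPKM. In KO-1-hetero tumors, 3 of 10 smooth muscle markers were higher than in WT-young tumors, with a median of 1.82 over the list. Of 10 fibroblast markers 1 was higher, Fbln1 at 1.76. Among all genes tested, 1.63% were called higher in this comparison. The part of these markers in the Col14a1 difference was not tested. With KO-1-hetero tumors set against those of KO-8-hetero, 0 of 28 members passed in limma, with 3 at an unadjusted p under 0.05 and 0% of all genes called. Of all 13799 genes tested, 1363 were at an unadjusted p under 0.05 there.

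Col17a1 (chr19:47646341-47692042), a transmembrane collagen of hemidesmosomes, the plaques that hold basal cells of stratified epithelium to their basement membrane, was high in 2 tumors of different labels. KO-8-hetero tumor 2 held 35.1 FPKM and WT-young tumor 2 held 6.72 FPKM, whereas the highest of the other 22 libraries was 0.401 FPKM. It reached 1 FPKM in too few libraries to be tested. The mean of 8 squamous epithelium markers was 8.02 and 5.30 on the log2(FPKM + 1) scale in these 2 tumors and at most 2.17 in the others, and Krt14, a keratin of basal cells, reached 3173 FPKM in the first of them. Skeletal muscle markers were also high in KO-8-hetero tumor 2 alone, at a mean of 5.89 against at most 1.55 in the others. Col7a1 (chr9:108953586-108984875), the anchoring fibril collagen of the same attachment, was highest in KO-8-hetero tumor 2 at 6.07 FPKM, with 2.50 FPKM in WT-young tumor 2. It was also 3.53 FPKM in WT-young tumor 1, where Col17a1 was at 0.359 FPKM. Normal samples held 0.0616 to 0.158 FPKM, under every tumor. The log2 fold change of Col7a1 was 0.92 for KO and 1.16 for WT, the latter 0.93 without WT-young tumor 1. The part of squamous tissue in these values was not tested.

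**Figure D5:**
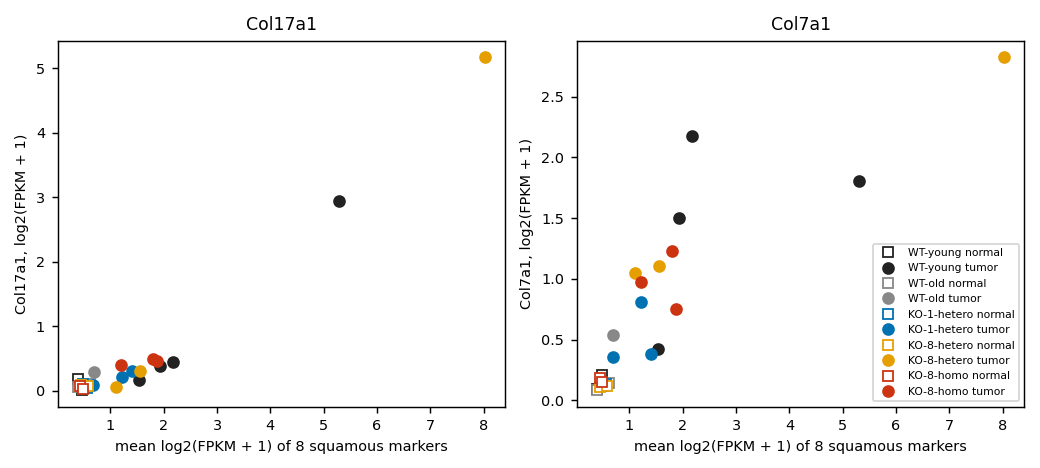
Level of Col17a1 (left) and Col7a1 (right), as log2(FPKM + 1), against the mean log2(FPKM + 1) of 8 squamous epithelium markers in each of the 24 libraries (open squares normal, filled circles tumor, colors by title group). KO-8-hetero tumor 2 lies at the upper right of both panels, and WT-young tumor 2, at 5.30 on the horizontal axis, is next for Col17a1 but lies under WT-young tumor 1 for Col7a1.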

How the data were processed

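Colorectal tumor and normal tissue was profiled by stranded mRNA sequencing of total RNA (TruSeq Stranded mRNA kit after miRNeasy extraction, per the labels' protocols). The authors deposited 1 table of FPKM per library, per the file headers, and the submitters' processing notes name TopHat2 2.1.1, Bowtie2 2.2.8, SAMtools 0.1.18, Cuffdiff 2.2.1 and mm10. The gene annotation is not given in the sources used here. No counts were used, and depth was estimated only relatively, so no counting interval is given.

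Differences were computed with limma 3.58.1 (R 4.3.3) on log2(FPKM + 1), with a trend of variance on level, over the 13799 genes with at least 1 FPKM in at least 4 libraries. All 24 libraries entered each model, either as label by tissue or as 10 title groups, and p-values are two-sided, with Benjamini-Hochberg adjustment over all genes tested. Tests were tried on simulated data. Named members are, per comparison, up to 5 largest rises and 5 largest falls past the threshold, the most abundant member of each class, neighbouring pairs, and up to 3 genes of each accompanying list. Other members were named to account for all 44, after their values were seen. The members, classes, marker lists and accompanying lists were chosen with earlier results of these data known. Alternatives were another pseudocount (0.1), no filter, quantile normalization, a replicate block, a term for high Xist, leaving out the WT-old libraries and leaving out each library in turn. Replicate numbers in the titles are shared between groups. Among title groups with 3 same-numbered pairs, every pair correlated above 0.1 for KO-8-hetero and WT-young tumors alone (0.239, 0.439 and 0.165). The 0.439 is between tumor 2 of each, the tumors with high squamous markers. The main fits did not use the number. In the block alternative it was a term over all libraries for labels and title groups. Across tissues, samples with the same title beginning and number formed a block. The labels do not say what it marks. No library was left out of the main values.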

Additional observations from a re-analysis of the deposited data

Results flagged for a closer look

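Among 75 checks of a group's highest and lowest library, covering 15 collagen genes, 3 values stood apart from the rest of their group. The cut-offs mark about 1 group in 20 by chance where values follow a normal distribution. Here they were applied to FPKM without logs, in groups that share libraries, so 3 in 75 cannot be set against that rate. In tumors labelled WT, Col4a6 was highest in the WT-old tumor, at 1.30 FPKM, while the other 4 tumors held 0.0265 to 0.172 FPKM. In tumors labelled KO, Col7a1 was highest in KO-8-hetero tumor 2, at 6.07 FPKM, while the other 8 tumors held 0.279 to 1.34 FPKM. In the same tumor Col8a1 was at 3.87 FPKM, while the other 8 tumors labelled KO held 0.823 to 1.81 FPKM. KO-8-hetero tumor 2 is also the library with the highest squamous and skeletal muscle marker levels, at means of 8.02 and 5.89 on the log2(FPKM + 1) scale. The part of that tissue in the 2 values was not tested.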

How the results depend on the processing

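The largest rises and falls past the threshold in each comparison kept their sign in all alternatives run. Signs of the other genes named here were not checked, and medians over the collagen genes did change sign. For KO-1-hetero against WT-young tumors the median of 0.26 became -0.09 without WT-young tumor 4, alone or with the WT-old tumor, and with the replicate block. For KO against WT normal samples 0.17 became -0.26 without the WT-old libraries. For the interaction 0.33 became -0.05 without WT-young tumor 4 and the WT-old tumor together. For tumor against normal, 17 collagen genes were called with the KO label and 7 with the WT label, or 13 and 4 without the 4 genes that the filter favored. With a term for high Xist the KO count was 10, and without the high-Xist libraries 2, which left fewer samples. Without WT-young tumor 4 and the WT-old tumor together the WT count was 17. Leaving out 1 library at a time gave 4 to 15 for WT and 14 to 17 for KO. For KO-1-hetero against WT-young tumors the count of 1 became 2 with a pseudocount of 0.1, and 0 with no filter, with the Xist term and without WT-young tumor 4 and the WT-old tumor together. Leaving out 1 library gave 0 to 1 there, and 0 to 2 for KO-8-homo. The causes were not tested. The fits without WT-young tumor 4 and the WT-old tumor, without the tumors KO-8-hetero 2 and WT-young 2, and without the high-Xist libraries were chosen after seeing the data. Without a filter 44 members entered, and 24 were called for KO, but a gene under 1 FPKM changes little on this scale.

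With the replicate number as a block, 17 genes were called for KO and 7 for WT. The number of calls for KO-1-hetero against WT-young stayed at 1, but it was a lower call, and Col14a1 was no longer past the threshold, at a log2 fold change of 0.78. Within tumors this block takes out WT-young tumor 4, the one library with its number. Same-numbered samples correlated above 0.1 in 1 of 8 pairs of tumor and normal samples, 7 of 18 pairs of tumors and 2 of 20 pairs of normal samples. Each normal title group has 2 samples, so both numbers give the same correlation between normal groups. The 2 normal pairs thus repeat 1 value, 0.565 for WT-young with WT-old. Among title groups with 3 pairs, every pair was above 0.1 for KO-8-hetero and WT-young tumors alone, where the block changed no call. The estimated correlation within blocks was 0.0197.

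Quantile normalization moved the median of all genes by less than 0.1 in each comparison and gave medians over the collagen genes of 0.67 for KO and 0.46 for WT. The depth behind single values is unknown in these tables, which limits genes under 1 FPKM most.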
